A study of Homo sapiens with 12 samples.

Results

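The genes described here are 40 epithelial junction and keratin genes, chosen by symbol from the 17303 genes of the deposited table, and all 40 passed the expression filter and were tested. They comprise 8 genes of adherens junctions, 9 of desmosomes, 10 tight junction membrane proteins, 5 genes of the tight junction plaque and of polarity complexes, 5 epithelial surface or regulatory genes and 3 simple keratins. They were measured by RNA-seq in 4 lentiviral, puromycin-selected lines of SNU638, an established cell line from a human gastric cancer. One line each carried SKA2 hairpin 1, SKA2 hairpin 2 or SKA2 hairpin 3, and the control line carried a control hairpin, with its genotype given as wt. Each line gave 3 libraries, 12 in all. The labels do not give the hairpin sequences, or whether a line is a single clone, so a hairpin and the cell line that carries it cannot be told apart. Whether the libraries of 1 line are separate cultures is not stated either, so all p-values rest on a spread that may be only technical.

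Epithelial cells are held together by 3 kinds of junction. In adherens junctions, cadherins and nectins bind the neighbouring cell and catenins tie them to actin. In desmosomes, the desmogleins and desmocollins are joined through plakoglobin, plakophilins and desmoplakin to keratin filaments, which in simple epithelia such as the stomach are built from KRT8 paired with KRT18 or KRT19. Tight junctions seal the space between cells with claudins and MARVEL domain proteins on a plaque of ZO proteins, and polarity proteins set where they form.

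SKA2, a subunit of the spindle and kinetochore complex and the target of the hairpins, had a mean of 23.99, 25.3 and 26.6 CPM (counts scaled to the library total) with hairpins 1, 2 and 3, against 121 CPM in the control line. The libraries held 14693343 to 16739155 counts. Their dependence on transcript length differed. The slope of a gene's log2 level, taken relative to the other libraries, per doubling of effective length ranged between 0.0835 and 0.108 in the hairpin 1 line, between 0.152 and 0.206 in the hairpin 2 line and between -0.171 and 0.0929 in the hairpin 3 line, against -0.325 to -0.0563 in the control line. The first hairpin 3 library and the first control library stood apart from the other libraries of their lines, with slopes of 0.0929 and -0.0563. Against the control line, long genes on average read higher and short genes lower in each hairpin line. Hairpin 3 libraries 2 and 3, at slopes of -0.123 and -0.171, nevertheless lay below the first control library. How far this is technical cannot be told apart from the lines themselves. A second fit with offsets that remove each library's own length trend is therefore given beside the counts and the genes it changes. Of the markers of other cell types, the endothelial list summed to at most 0.444 CPM in every library, and PTPRC and CD3E of the leukocyte list and COL1A2 and DCN of the fibroblast list were at or near 0. The sum over the 4 leukocyte markers, nearly all of it CD68, was 20.4 to 23.3, 10.7 to 13.1 and 21.0 to 25.0 CPM with hairpins 1, 2 and 3, against 22.8 to 27.2 CPM in the control line. The sum over the 5 fibroblast markers in the table, nearly all of it COL1A1, was 5.01 to 6.14, 7.18 to 8.66 and 3.71 to 5.69 CPM, against 7.03 to 8.98 CPM. The part of these markers in the results was not tested. Of the 7 gastric lineage markers, HNF4A, TFF1 and MUC5AC were at or near 0. SOX2 was higher with each hairpin (2.05, 1.16 and 2.37 on the log2 scale), as was GATA6 (0.39, 1.05 and 0.47), FOXA2 was lower with each (-1.68, -3.08 and -1.78), and GATA4 was lower with hairpins 1 and 3 (-0.35 and -0.35), all by edgeR.

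In the control line the simple keratins led the list in TPM, a level corrected for transcript length and scaled to the same total in each library. KRT18 stood at 1441 ± 92.6 TPM and KRT8 at 1247 ± 63.9 TPM, followed by KRT19 at 482 ± 56.4 TPM and EPCAM at 293 ± 13.96 TPM (SD, n = 3). KRT18 was above KRT8 in each of the 3 control libraries. CTNNA1 (221 ± 15.04 TPM), CLDN7 (119 ± 0.729 TPM) and CTNNB1 (118 ± 43.1 TPM) came next, and the order of CLDN7 and CTNNB1 is within their spread. CDH1, which encodes E-cadherin, the classical cadherin of epithelia, was 36th of the 40 at 1.46 ± 0.203 TPM. The other cadherin of the list, CDH3 or P-cadherin, stood above it at 12 ± 1.899 TPM. Below CDH1 came TJP3 (0.91 ± 0.115 TPM), NECTIN4 (0.807 ± 0.0808 TPM), CLDN4 (0.793 ± 0.437 TPM) and GRHL2 (0.313 ± 0.0611 TPM), and the order of TJP3, NECTIN4 and CLDN4 is within their spread.

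Each hairpin line was compared with the control line to find which of these genes differed with SKA2 knockdown, and many did, in both directions. With hairpin 1, 13 of the 40 were higher and 11 lower at an adjusted p under 0.05 in edgeR. Over all 12868 genes tested, 63.1% were called, 31.5% higher and 31.5% lower. With hairpin 2, 16 were higher and 15 lower, where 74.4% of all genes were called, 36.6% higher and 37.8% lower. With hairpin 3, 8 were higher and 11 lower, where 47.6% of all genes were called, 23.6% higher and 24.0% lower. These shares of the 40 genes are near the background. The median log2 fold change of the 40 was -0.0385, -0.0436 and 0.0109 with hairpins 1, 2 and 3, against 0.0059, -0.017 and 0.0086 over all genes. The balance of directions rests on the scaling. On log2(TPM + 1), where the median change over all genes was itself 0.29, 0.33 and 0.12, limma called 21 members higher and 5 lower with hairpin 1, 23 and 8 with hairpin 2, and 10 and 9 with hairpin 3. Of all genes that fit called 50.2% higher and 13.5% lower with hairpin 1, 53.0% and 20.9% with hairpin 2, and 25.0% and 16.1% with hairpin 3. The members' median there was 0.363, 0.451 and 0.139. Single control libraries also moved the higher calls. Without control library 2, 8 members were higher and 9 lower with hairpin 1, and without control library 1, 15 were higher and 11 lower with hairpin 3. The shares of all genes called in these fits are not given. The count for hairpin 3 depends on the pairing of libraries. Hairpin 3 and control libraries of the same number deviated together, but libraries 2 and 3 did so across numbers too. A fit of these 6 libraries with the replicate number as a block, chosen after seeing the data, called 30 members, 16 higher and 14 lower. It called 71.4% of all genes, 35.9% higher and 35.5% lower. It kept the 19 calls and added CTNND1, JUP, DSG2, DSP, MARVELD3, F11R, TJP1 and EPCAM as higher, by 0.10 to 0.47 on the log2 scale, and PKP4, CLDN12 and OCLN as lower, at -0.22 to -0.19. The same block in the fit of all 12 libraries called 20, against 49.0% of all genes. Without any block, the fit of the 6 libraries alone called 11, against 27.7% of all genes, and the calls it lost were those of CTNNB1, NECTIN2, PKP3, DSC2, EVPL, MARVELD2, ESRP1 and KRT8, with adjusted p between 0.0583 and 0.129.

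**Figure D1:**
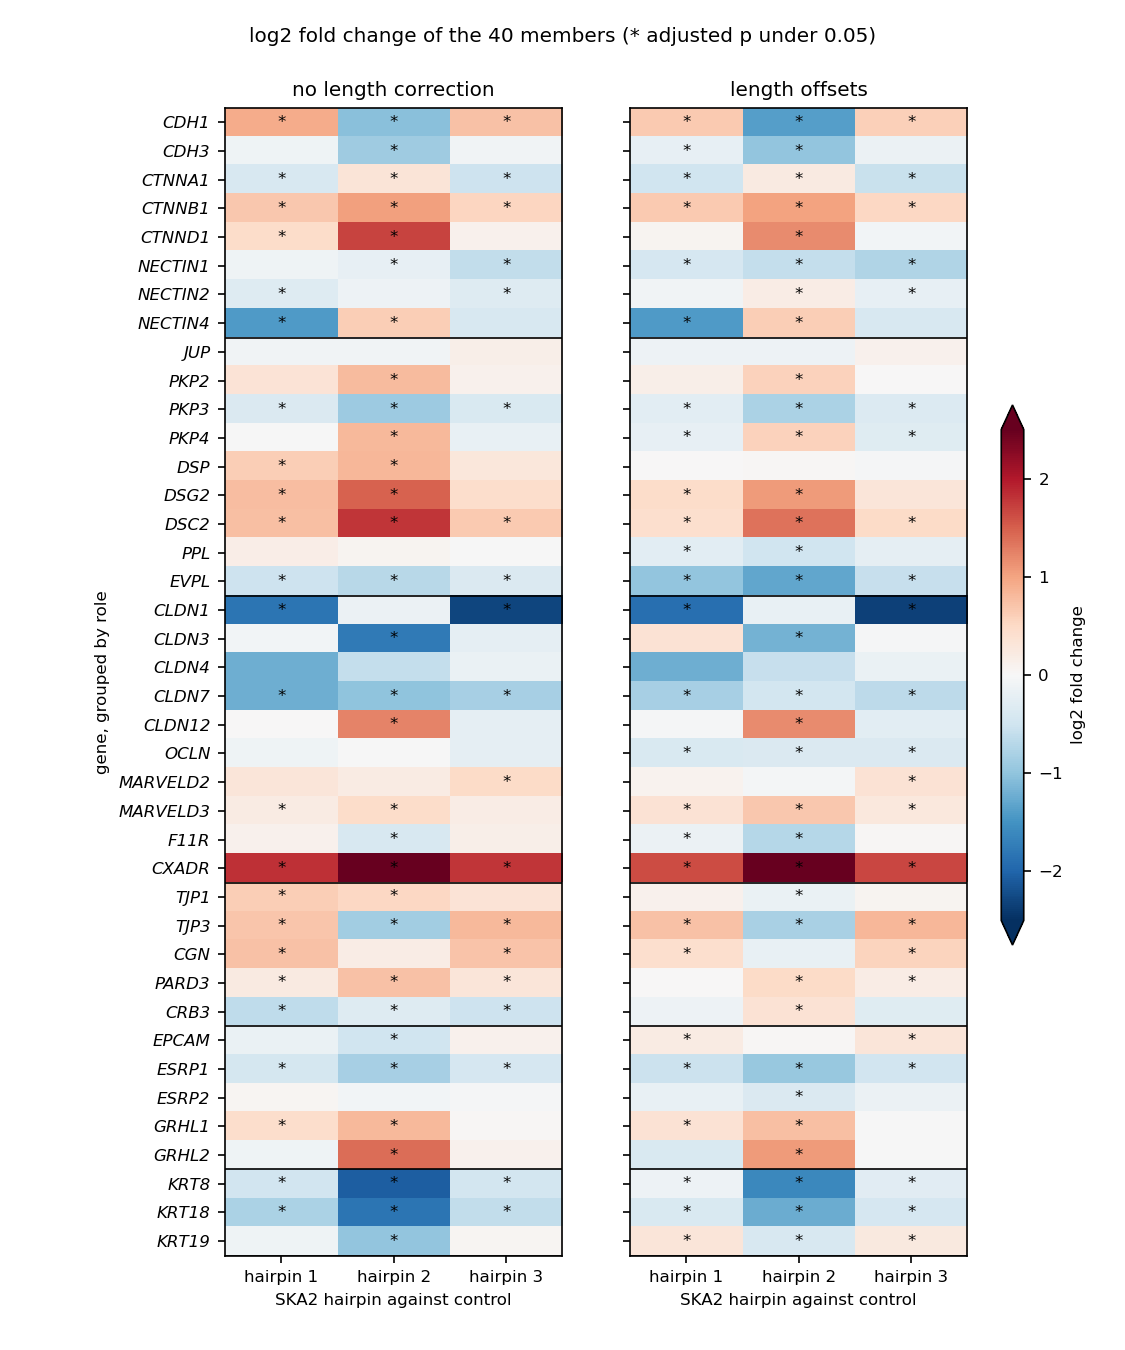
Log2 fold change of each of the 40 genes (rows, grouped by role, from adherens junction at the top to simple keratins at the bottom) with each SKA2 hairpin against the control line (columns), without length correction on the left and with length offsets on the right. Asterisks mark an adjusted p under 0.05, and colours stop at 2.5, which CXADR with hairpin 2 exceeds at 3.37, or 3.14 with length offsets. CXADR is red and CLDN7 blue in every column of both panels.

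Some members were called in 1 direction with all 3 hairpins. CTNNB1, DSC2, CXADR and PARD3 were higher with each hairpin, a pattern shown by 13.9% of all genes. PKP3, EVPL, CLDN7, CRB3, ESRP1, KRT8 and KRT18 were lower with each, a pattern shown by 15.0% of all genes. The 3 comparisons share the control libraries. CDH1, CTNNA1, NECTIN4 and TJP3 were called higher with 1 hairpin and lower with another, a pattern shown by 8.06% of all genes. JUP, PPL, CLDN4, OCLN and ESRP2 were called with no hairpin in this fit. With length offsets, the genes higher with all 3 hairpins were CTNNB1, DSC2, CXADR and MARVELD3 (14.6% of all genes), and those lower were PKP3, EVPL, CLDN7, ESRP1, KRT8, KRT18, NECTIN1 and OCLN (15.2% of all genes).

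Promoter sequences are shown for members that moved in 1 direction with all 3 hairpins, as a description of what lies at their starts. The E-box CAGGTG, or CACCTG on the other strand, is the sequence that the repressors SNAI1 and ZEB1 are known to bind at epithelial promoters. Windows reach from 250 bases before to 50 after a RefSeq transcription start (GRCh38.p14), and 22 of the 40 members have 34 windows in the table used. Among members that move together, CXADR, PARD3, PKP3, EVPL, KRT18 and ESRP1 are named only. An E-box lay in 12 of the 34 windows, or 35.3%, against 20.6% of 35116 windows of all genes. It lay in 11 of the 22 members, some of which have more than 1 window. No share per gene over all genes is given for comparison. E-boxes are in capitals. In the fit without length offsets, the first pair was lower with all hairpins and the second pair higher. With length offsets CRB3 was not called lower with any hairpin (-0.12, 0.36 and -0.30).
CLDN7, chr17:7262429-7262728, minus strand: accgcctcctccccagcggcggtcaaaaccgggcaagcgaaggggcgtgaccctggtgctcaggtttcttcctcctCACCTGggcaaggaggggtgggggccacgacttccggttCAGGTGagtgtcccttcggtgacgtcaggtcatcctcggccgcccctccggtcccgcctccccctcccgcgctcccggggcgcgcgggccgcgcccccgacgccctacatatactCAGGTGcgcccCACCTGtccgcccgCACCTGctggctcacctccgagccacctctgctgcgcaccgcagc
CRB3, chr19:6464021-6464320, plus strand: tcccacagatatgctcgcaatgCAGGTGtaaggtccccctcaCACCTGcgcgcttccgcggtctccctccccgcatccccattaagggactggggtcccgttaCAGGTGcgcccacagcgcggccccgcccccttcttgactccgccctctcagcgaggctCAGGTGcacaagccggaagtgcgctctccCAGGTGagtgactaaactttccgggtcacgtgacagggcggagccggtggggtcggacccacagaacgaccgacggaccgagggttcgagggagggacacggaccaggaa
CTNNB1, chr3:41199255-41199554, plus strand: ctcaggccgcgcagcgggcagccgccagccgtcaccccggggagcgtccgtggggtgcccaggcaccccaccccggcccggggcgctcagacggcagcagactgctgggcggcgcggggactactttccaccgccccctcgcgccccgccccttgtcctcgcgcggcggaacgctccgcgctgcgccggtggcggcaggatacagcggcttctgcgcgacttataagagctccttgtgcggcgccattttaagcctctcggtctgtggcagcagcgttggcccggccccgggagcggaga
DSC2, chr18:31102372-31102671, minus strand: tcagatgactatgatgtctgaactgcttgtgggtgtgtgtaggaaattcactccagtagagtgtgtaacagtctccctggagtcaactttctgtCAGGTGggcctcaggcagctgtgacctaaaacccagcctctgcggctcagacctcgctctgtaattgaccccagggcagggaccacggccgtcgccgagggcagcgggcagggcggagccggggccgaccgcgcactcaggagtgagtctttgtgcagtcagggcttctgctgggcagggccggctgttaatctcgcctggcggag
The CLDN7 and CRB3 windows each hold 5 E-boxes, and 0.094% of all windows hold 5 or more. The DSC2 window holds 1 and the CTNNB1 window 0. A further CLDN7 window at another start, a further DSC2 window and the KRT8 window hold 0. E-boxes also lay in members outside these patterns. The DSP and DSG2 windows held 2 each and a TJP1 window 1. These genes were called higher with hairpins 1 and 2 without length offsets. The CLDN3 window, of a gene lower with hairpin 2, held 1. TJP3 and NECTIN4, called in both directions, each held 1 in a window. JUP and OCLN, not called without offsets, held E-boxes too. Whether E-boxes go with the direction of change was not tested. A match to these letters is not a measured binding site, and binding was not measured here.

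The simple keratins KRT8 and KRT18, which pair to form the intermediate filaments of simple epithelia, were lower in all 3 hairpin lines, and by most in the hairpin 2 line. KRT8 measured 971, 942 and 955 CPM in the hairpin 1 line, 319.7, 317 and 311 CPM in the hairpin 2 line and 821, 998 and 1065 CPM in the hairpin 3 line, against 1089, 1348 and 1534 CPM in the control line. KRT18 measured 689, 658 and 654 CPM in the hairpin 1 line, 319, 317 and 345 CPM in the hairpin 2 line and 600.0, 799.9 and 850.3 CPM in the hairpin 3 line, against 928, 1194 and 1340.0 CPM in the control line. For both genes every hairpin library was below every control library, and the hairpin 2 libraries were the lowest. The log2 fold changes of KRT8 were -0.47 (SE 0.12), -2.07 (SE 0.12) and -0.46 (SE 0.12) with hairpins 1, 2 and 3, with edgeR adjusted p of 0.0049, 6.01e-08 and 0.00768. Those of KRT18 were -0.79 (SE 0.14), -1.82 (SE 0.14) and -0.62 (SE 0.14), with adjusted p of 0.000663, 5.57e-07 and 0.00377. The epithelial marker list of EPCAM, CDH1, KRT8, KRT18 and KRT19 summed to 2190 to 2270, 998 to 1030 and 1990 to 2670 CPM with hairpins 1, 2 and 3, against 2540 to 3610 CPM in the control line. In bulk RNA, fewer cells that express a gene and less RNA per cell cannot be told apart.

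KRT19, a type I keratin that can take the place of KRT18, was lower with hairpin 2 alone. It measured 364, 351 and 338 CPM in the hairpin 1 line, 197, 187 and 189.8 CPM in the hairpin 2 line and 295, 425 and 455 CPM in the hairpin 3 line, against 284, 399 and 456 CPM in the control line. The hairpin 2 libraries lay below all others, while the hairpin 1 and hairpin 3 libraries lay within the control range. This gave log2 fold changes of -0.11 (SE 0.17), -0.99 (SE 0.17) and 0.05 (SE 0.17), with edgeR adjusted p of 0.572, 0.000262 and 0.841. All 3 keratins have short transcripts, with effective lengths of 1507, 1136 and 1112 bases for KRT8, KRT18 and KRT19. With length offsets KRT8 kept its calls at -0.14, -1.61 and -0.29 and KRT18 at -0.38, -1.24 and -0.42, while KRT19 was called higher with hairpins 1 and 3 (0.31 and 0.25) and lower with hairpin 2 (-0.40). On the TPM scale KRT8 measured 1194, 1180.0 and 1171 TPM with hairpin 1, against 1184, 1245 and 1312 TPM in the control line. Those 2 sets overlap, and limma on log2(TPM + 1) made no call (adjusted p = 0.164).

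KRT18 and KRT19, the type I partners of KRT8, are close to each other in effective length, and their ratio is given as a description, with no test. The ratio of KRT19 to KRT18 in TPM was 0.539, 0.544 and 0.527 with hairpin 1, 0.631, 0.604 and 0.563 with hairpin 2 and 0.503, 0.543 and 0.547 with hairpin 3, against 0.313, 0.341 and 0.347 in the control line. All 9 hairpin libraries lay above the 3 control libraries. The sum of KRT18 and KRT19 over KRT8 in TPM averaged 1.42 ± 0.0306, 2.19 ± 0.0889 and 1.58 ± 0.101 with hairpins 1, 2 and 3, against 1.54 ± 0.0529 in the control line (SD, n = 3 each). The hairpin 2 libraries, at 2.12 to 2.29, lay furthest above the control range of 1.48 to 1.58, and hairpin 3 libraries 2 and 3, at 1.64 and 1.63, lay just above it. Hairpin 1 libraries 1, 2 and 3, at 1.45, 1.43 and 1.39, and hairpin 3 library 1, at 1.46, lay below it. The 3 keratins took 0.202% ± 0.00473, 0.0848% ± 0.0012 and 0.211% ± 0.0337 of all counts with hairpins 1, 2 and 3, against 0.273% ± 0.0437 in the control line. The 40 genes together took 0.529%, 0.535% and 0.511%, against 0.552%. KRT8 and KRT18 are neighbours on opposite strands of chromosome 12, from 52897187 to 52949954 and from 52948871 to 52952901 (GRCh38, GENCODE v29), and their annotated exons share 525 bases. The library protocol names no step that keeps the strand, and the annotation names 50 pseudogenes of KRT8 and 68 of KRT18 that are absent from the gene table used here, so reads could be shared with either.

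**Figure D2:**
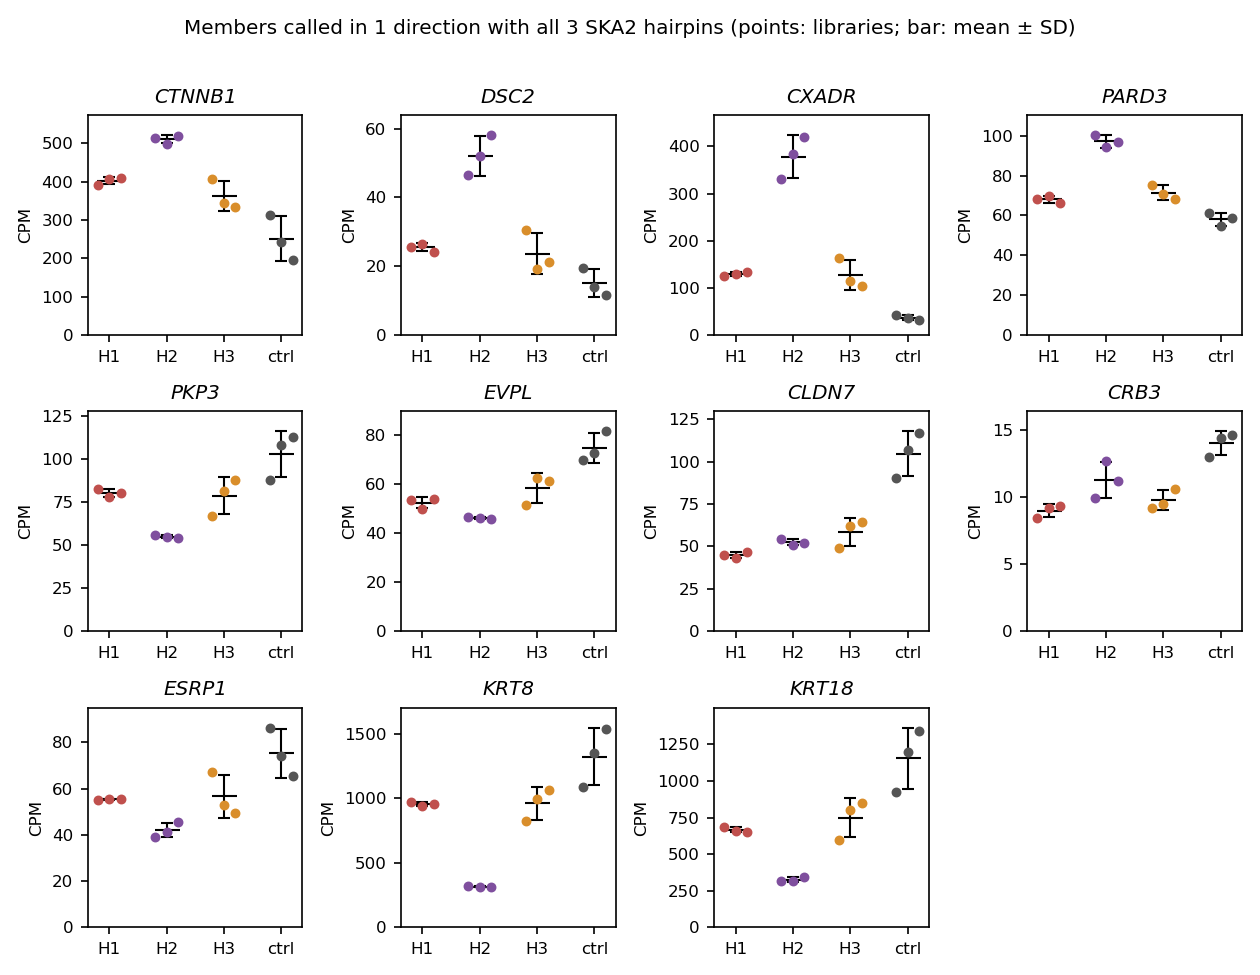
CPM (vertical axis, from 0) of the 11 genes called in 1 direction with all 3 hairpins, by line (H1, H2, H3 and control). Points are the 3 libraries and the black bar is their mean ± SD; CXADR stands at 331, 385 and 421 CPM with hairpin 2, against 42.2, 35.7 and 32.02 CPM in the control line, and KRT8 at 319.7, 317 and 311 CPM with hairpin 2, against 1089, 1348 and 1534 CPM.

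Of the 8 adherens junction genes, 3 were higher and 3 lower with hairpin 1, 4 higher and 3 lower with hairpin 2, and 2 higher and 3 lower with hairpin 3. With length offsets the counts with hairpins 1, 2 and 3 were 2 higher and 4 lower, 5 higher and 3 lower, and 2 higher and 3 lower. CTNNB1 encodes beta-catenin, which binds the cadherin tail and also acts in Wnt signalling. Its level was 392, 407 and 408 CPM in the hairpin 1 line, 513, 499 and 519 CPM in the hairpin 2 line and 407, 344 and 335 CPM in the hairpin 3 line, against 314, 243 and 196 CPM in the control line. Every hairpin library lay above every control library. Against the control line, its log2 fold changes were 0.68 (SE 0.14), 1.02 (SE 0.14) and 0.53 (SE 0.14), with edgeR adjusted p of 0.00141, 3.66e-05 and 0.0083, and with length offsets 0.65, 1 and 0.51.

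CDH1 was higher with hairpins 1 and 3 and lower with hairpin 2. The 12 libraries gave 8.56, 8.501 and 8.88 CPM in the hairpin 1 line, 3.09, 1.93 and 1.65 CPM in the hairpin 2 line and 8.46, 8.22 and 6.13 CPM in the hairpin 3 line, against 4.69, 4.39 and 4.59 CPM in the control line. No library of any hairpin line overlapped the control range, but the level is low: the hairpin 2 libraries held 25 to 46 reads each, against 68 to 74 in the control libraries. On the log2 scale the changes were 0.92 (SE 0.18), -1.04 (SE 0.21) and 0.74 (SE 0.18), with edgeR adjusted p of 0.0011, 0.00076 and 0.00592. With length offsets they were 0.66, -1.37 and 0.60, all still called. On log2(TPM + 1), limma gave -0.34 for hairpin 2, with an adjusted p of 0.0505. The added 1 shrinks log2 changes at levels this low, here 0.95 TPM with hairpin 2, against 1.46 TPM in the control line. CDH3 was lower with hairpin 2 at a log2 fold change of -0.89 (SE 0.07), and was not called with hairpin 1 (-0.10) or hairpin 3 (-0.10). With length offsets CDH3 was called lower with hairpins 1 and 2 (-0.20 and -0.98) and not called with hairpin 3 (-0.15).

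The catenin that links this complex to actin, CTNNA1, went the other way. By library it read 366, 364 and 363 CPM in the hairpin 1 line, 623, 578 and 609 CPM in the hairpin 2 line and 336, 337 and 343 CPM in the hairpin 3 line, against 479.8, 483 and 486 CPM in the control line. The hairpin 1 and hairpin 3 libraries lay below the control range and the hairpin 2 libraries above it. The log2 fold changes were -0.41 (SE 0.05), 0.32 (SE 0.05) and -0.51 (SE 0.05), with edgeR adjusted p of 7.45e-05, 0.000134 and 1.40e-05, and -0.50, 0.23 and -0.57 with length offsets. CTNND1, the p120-catenin that holds cadherins at the membrane, averaged 766 ± 7.28 CPM with hairpin 2, against 237 ± 72.2 CPM in the control line (SD, n = 3 each). Its log2 fold change with hairpin 2 was 1.69 (SE 0.18), or 1.18 with length offsets. Its smaller call with hairpin 1 (0.46 (SE 0.18)) was lost with length offsets (0.06). It was lost as well without control library 2 or 3, any 1 hairpin 1 library or any 1 hairpin 2 library, with values of 0.29 to 0.46.

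Nectins are immunoglobulin-like adhesion molecules that join before the cadherins. NECTIN4 measured 0.523, 0.973 and 0.507 CPM in the hairpin 1 line, 2.75, 2.19 and 3.29 CPM in the hairpin 2 line and 1.496, 1.26 and 1.33 CPM in the hairpin 3 line, against 1.39, 1.87 and 2.105 CPM in the control line. It lay below the control range with hairpin 1, above it with hairpin 2 and partly below it with hairpin 3. Its changes on the log2 scale were -1.41 (SE 0.29), 0.61 (SE 0.23) and -0.39 (SE 0.26), with edgeR adjusted p of 0.00164, 0.0302 and 0.224. The hairpin 2 call was lost without control library 1 or 2 (0.46 and 0.64) or hairpin 2 library 1 or 3 (0.61 and 0.46). It was lost in DESeq2 as well, and without the first control and first hairpin 3 libraries. NECTIN4 had 8 to 15 reads in each hairpin 1 library and 34 to 50 with hairpin 2, against 22 to 33 in the control libraries. NECTIN1 was lower with hairpin 2 (-0.20 (SE 0.07)) and hairpin 3 (-0.61 (SE 0.07)), and the hairpin 2 call was lost without control library 1 (-0.16) or hairpin 2 library 3 (-0.18) and in the TPM fit, where the sign turned (0.11). With length offsets NECTIN1 was lower with each hairpin (-0.42, -0.60 and -0.76), and its hairpin 1 change without them, -0.11 (SE 0.07), was not called. NECTIN2 was lower with hairpin 1 (-0.32 (SE 0.11)) and hairpin 3 (-0.32 (SE 0.11)). Neither call of NECTIN2 held without control library 2 or 3, where hairpin 1 gave -0.29 and -0.23 and hairpin 3 gave -0.30 and -0.23. The first was also lost without hairpin 1 library 2 or 3 (-0.32 and -0.31), and the second without hairpin 3 library 1 (-0.23). With length offsets NECTIN2 was called higher with hairpin 2 (0.18) and lower with hairpin 3 (-0.21).

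Of the 9 desmosome genes, 3 were higher and 2 lower with hairpin 1, 5 higher and 2 lower with hairpin 2, and 1 higher and 2 lower with hairpin 3. Length offsets gave 2 higher and 4 lower with hairpin 1, 4 higher and 3 lower with hairpin 2, and 1 higher and 3 lower with hairpin 3. The 2 that were lower in each comparison without offsets were PKP3 and EVPL. DSC2, a desmocollin, measured 25.5, 26.5 and 24.2 CPM in the hairpin 1 line, 46.5, 51.9 and 58.1 CPM in the hairpin 2 line and 30.4, 19.2 and 21.2 CPM in the hairpin 3 line, against 19.6, 13.96 and 11.7 CPM in the control line. The hairpin 1 and hairpin 2 libraries lay above the control range, and the lowest hairpin 3 library was just inside it. This gave log2 fold changes of 0.75 (SE 0.20), 1.79 (SE 0.19) and 0.65 (SE 0.20), with edgeR adjusted p of 0.00605, 7.04e-06 and 0.0184, and 0.43, 1.36 and 0.49 with length offsets. The hairpin 3 call was lost without control library 2 or 3 (0.59 and 0.49) or hairpin 3 library 1 (0.42).

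DSG2, the desmoglein of simple epithelia, averaged 170.4 ± 0.901, 278 ± 13.4 and 137 ± 45.7 CPM in the lines of hairpins 1, 2 and 3, against 100.2 ± 41.9 CPM in the control line (SD, n = 3 each). Against the control line, its log2 fold changes were 0.77 (SE 0.26), 1.47 (SE 0.26) and 0.45 (SE 0.26), called with hairpins 1 and 2. Length offsets gave 0.46, 1.07 and 0.30 for DSG2, called with hairpins 1 and 2 and not with hairpin 3. With libraries of the same number paired, the hairpin 3 change was 0.47 and called (edgeR adjusted p = 3.01e-13), with 189, 115 and 106 CPM in hairpin 3 libraries 1, 2 and 3, against 147, 87.5 and 66.2 CPM in control libraries 1, 2 and 3. The pairing was chosen from these same data, so the adjusted p-values of the paired fit are not independent support. The hairpin 1 call was lost without control library 2 or 3 (0.68 and 0.54) or any 1 hairpin 1 library (0.77, 0.75 and 0.76). DSP, desmoplakin, which anchors keratin filaments to the desmosome, has the longest transcript of the list, with an effective length of 8734 bases. It was called higher with hairpin 1 (0.62 (SE 0.20)) and hairpin 2 (0.84 (SE 0.20)), but with length offsets the changes were 0.00 and 0.04, not called. Without control library 2 or 3 the hairpin 1 change of DSP was 0.55 and 0.47, not called. Its hairpin 3 change, 0.29 (SE 0.20), was not called, but it was in the paired fit (0.29, edgeR adjusted p = 6.58e-09) and without control library 1 (0.55). With length offsets the hairpin 3 change of DSP was -0.03, not called.

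PKP3, a plakophilin that binds desmoplakin in the desmosomal plaque, was lower with each hairpin. It measured 82.7, 77.9 and 80.1 CPM in the hairpin 1 line, 55.8, 54.4 and 54.1 CPM in the hairpin 2 line and 66.5, 81.5 and 87.5 CPM in the hairpin 3 line, against 87.8, 108 and 112 CPM in the control line. Every hairpin library was below every control library, though the highest hairpin 3 library was within 1 CPM of the lowest control library. On the log2 scale the changes were -0.36 (SE 0.11), -0.91 (SE 0.11) and -0.39 (SE 0.11), with edgeR adjusted p of 0.0133, 1.59e-05 and 0.0122, and -0.27, -0.79 and -0.34 with length offsets. Its hairpin 1 call was lost without control library 2 or 3 (-0.32 and -0.29), and its hairpin 3 call without control library 3 (-0.32). In the TPM fit the hairpin 1 change of PKP3 turned to 0.03, not called. EVPL, envoplakin, a plakin of the cornified envelope and of desmosomes, measured 53.4, 49.7 and 53.6 CPM in the hairpin 1 line, 46.6, 46.1 and 45.8 CPM in the hairpin 2 line and 51.4, 62.5 and 61.1 CPM in the hairpin 3 line, against 69.8, 72.5 and 81.3 CPM in the control line. No hairpin library overlapped the control range. The log2 fold changes were -0.51 (SE 0.09), -0.69 (SE 0.09) and -0.35 (SE 0.09), with edgeR adjusted p of 0.00049, 2.08e-05 and 0.00573. EVPL has a long transcript of 6202 bases, and with length offsets its changes were larger, at -0.98, -1.29 and -0.57. In the TPM fit they were smaller, at -0.12, -0.23 and -0.18, and limma called hairpin 2 alone (adjusted p = 0.207, 0.0208 and 0.0867). The related plakophilins PKP2 and PKP4 were called higher with hairpin 2 alone, at log2 fold changes of 0.80 (SE 0.21) and 0.80 (SE 0.08). With length offsets both stayed higher with hairpin 2 (0.58 and 0.57), and PKP4 was called lower with hairpins 1 and 3 (-0.20 and -0.30). JUP, plakoglobin, and PPL, periplakin, were not called, at log2 fold changes between -0.09 and 0.18. With length offsets PPL was called lower with hairpins 1 and 2 (-0.26 and -0.49), while in the TPM fit limma called it higher with both (0.48 and 0.43). JUP was called higher with all 3 hairpins in the TPM fit (0.28, 0.36 and 0.28).

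Of the 10 tight junction membrane genes, 2 were higher and 2 lower with hairpin 1, 3 higher and 3 lower with hairpin 2, and 2 higher and 2 lower with hairpin 3. These were 2 higher and 4 lower, 3 higher and 4 lower, and 3 higher and 3 lower with hairpins 1, 2 and 3 when length offsets were used. CXADR, a junctional immunoglobulin-like protein known as the receptor of coxsackieviruses and adenoviruses, was higher in all 3 lines. It lies on chromosome 21 from 17512382 to 17593579. Its level was 125, 129.5 and 135 CPM in the hairpin 1 line, 331, 385 and 421 CPM in the hairpin 2 line and 163, 114 and 103 CPM in the hairpin 3 line, against 42.2, 35.7 and 32.02 CPM in the control line. Every hairpin library lay above every control library, and the hairpin 2 libraries were the highest. The means were 3.54-fold, 10.3-fold and 3.46-fold those of the control line with hairpins 1, 2 and 3, and the log2 fold changes were 1.82 (SE 0.17), 3.37 (SE 0.17) and 1.79 (SE 0.17), with edgeR adjusted p of 6.46e-06, 2.09e-08 and 7.40e-06. With length offsets they were 1.63, 3.14 and 1.68. The annotation names 3 pseudogenes of CXADR, absent from the gene table used here.

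CLDN7, a claudin of the basolateral membrane of many epithelia, was lower in all 3 lines. It lies on chromosome 17 from 7259903 to 7263983. The 12 libraries gave 44.8, 43.3 and 46.9 CPM in the hairpin 1 line, 54.4, 50.7 and 52.3 CPM in the hairpin 2 line and 48.99, 62.3 and 64.7 CPM in the hairpin 3 line, against 90.6, 107 and 117 CPM in the control line. No hairpin library overlapped the control range, and the first hairpin 3 library was the lowest of its line. Its changes on the log2 scale were -1.22 (SE 0.11), -0.998 (SE 0.11) and -0.84 (SE 0.11), with edgeR adjusted p of 7.99e-06, 9.53e-06 and 0.000124. CLDN7 is short, at 1258 bases, and with length offsets the changes were -0.84, -0.46 and -0.65, all still called.

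CLDN1, a barrier-forming claudin, separated the hairpins. By library it read 4.64, 4.35 and 4.88 CPM in the hairpin 1 line, 14.4, 14.5 and 15.9 CPM in the hairpin 2 line and 3.25, 3.16 and 3.604 CPM in the hairpin 3 line, against 17.8, 15.8 and 15.8 CPM in the control line. With hairpins 1 and 3 every library was far below the control range, while 1 hairpin 2 library reached into it and the other two lay just below it. This gave log2 fold changes of -1.83 (SE 0.10), -0.14 (SE 0.09) and -2.30 (SE 0.10), with edgeR adjusted p of 9.01e-08, 0.18 and 2.00e-08, and -1.88, -0.18 and -2.33 with length offsets. Hairpin 2 minus hairpin 1 was 1.69 (SE 0.10, edgeR adjusted p = 9.89e-08), and hairpin 3 minus hairpin 2 was -2.16 (SE 0.10, edgeR adjusted p = 2.27e-08).

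CLDN3, another barrier-forming claudin, was lower with hairpin 2 alone. It measured 2.81, 2.401 and 2.54 CPM in the hairpin 1 line, 0.671, 0.836 and 0.857 CPM in the hairpin 2 line and 1.56, 2.47 and 2.91 CPM in the hairpin 3 line, against 2.53, 2.78 and 2.81 CPM in the control line. The hairpin 2 libraries lay below all others, and hairpins 1 and 3 overlapped the control range. CLDN3 had only 10 to 13 reads in each hairpin 2 library, against 40 to 44 in the control libraries. Against the control line, its log2 fold changes were -0.07 (SE 0.20), -1.77 (SE 0.24) and -0.22 (SE 0.20), called with hairpin 2 (adjusted p = 4.22e-05 in edgeR), where length offsets gave -1.18. CLDN12 was higher with hairpin 2 alone, at 54.9 ± 3.28 CPM, against 23.3 ± 6.62 CPM in the control line (SD, n = 3 each), a log2 fold change of 1.24 (SE 0.19). Of the remaining genes of this group, F11R, or junctional adhesion molecule A, was lower with hairpin 2 (-0.41 (SE 0.06)). With length offsets F11R was called lower with hairpins 1 and 2 (-0.15 and -0.71). MARVELD3 was higher with hairpin 1 (0.20 (SE 0.07)) and hairpin 2 (0.47 (SE 0.07)). Its hairpin 1 call was lost without control library 2 or 3, hairpin 1 library 2 or 3, or any 1 hairpin 2 library, with values of 0.16 to 0.20. MARVELD2, tricellulin, found where 3 cells meet, was higher with hairpin 3 (0.48 (SE 0.15)), a call lost without control library 2 or 3 (0.41 and 0.38) or hairpin 3 library 1 (0.35). CLDN4 and OCLN, or occludin, were called with none. CLDN4 lay between 0.193 and 1.08 CPM in the 12 libraries, and OCLN had log2 fold changes of -0.11 (SE 0.09), -0.02 (SE 0.09) and -0.22 (SE 0.09), which became -0.39, -0.36 and -0.35 and were all called lower with length offsets. In the TPM fit the hairpin 2 change of OCLN was 0.64, called higher, and that of F11R was 0.03, not called.

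Of the 5 genes of the tight junction plaque and of polarity, 4 were higher and 1 lower with hairpin 1, 2 higher and 2 lower with hairpin 2, and 3 higher and 1 lower with hairpin 3. With length offsets the counts with hairpins 1, 2 and 3 were 2 higher and 0 lower, 2 higher and 2 lower, and 3 higher and 0 lower. TJP3, or ZO-3, a plaque scaffold, was higher with hairpins 1 and 3 and lower with hairpin 2. Its level was 3.201, 2.596 and 2.85 CPM in the hairpin 1 line, 0.9398, 1.03 and 0.923 CPM in the hairpin 2 line and 2.86, 2.59 and 3.92 CPM in the hairpin 3 line, against 1.77, 1.75 and 1.79 CPM in the control line. No hairpin library overlapped the control range. On the log2 scale the changes were 0.70 (SE 0.18), -0.87 (SE 0.22) and 0.82 (SE 0.18), with edgeR adjusted p of 0.00581, 0.00323 and 0.00329, and 0.74, -0.82 and 0.84 with length offsets. In the TPM fit the hairpin 2 change of TJP3 was -0.20, not called (limma adjusted p = 0.0873). Its level there was 0.667 TPM with hairpin 2, against 0.91 TPM in the control line, where the added 1 shrinks log2 changes.

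PARD3, a scaffold of the PAR polarity complex, was higher with each hairpin. The 12 libraries gave 68.2, 69.6 and 66.3 CPM in the hairpin 1 line, 100.3, 94.2 and 97.01 CPM in the hairpin 2 line and 75.5, 70.9 and 68.1 CPM in the hairpin 3 line, against 61.1, 54.7 and 58.5 CPM in the control line. Every hairpin library lay above every control library. The log2 fold changes were 0.23 (SE 0.07), 0.74 (SE 0.07) and 0.30 (SE 0.07), with edgeR adjusted p of 0.011, 1.56e-06 and 0.00361. The hairpin 1 call was lost with length offsets (0.01) and without control library 2 or hairpin 1 library 2 (0.18 and 0.19). CRB3, the crumbs protein of the apical membrane, measured 8.43, 9.15 and 9.32 CPM in the hairpin 1 line, 9.94, 12.7 and 11.1 CPM in the hairpin 2 line and 9.17, 9.49 and 10.6 CPM in the hairpin 3 line, against 12.98, 14.3 and 14.6 CPM in the control line. No hairpin library overlapped the control range. Its changes on the log2 scale were -0.64 (SE 0.11), -0.31 (SE 0.11) and -0.52 (SE 0.11), with edgeR adjusted p of 0.000492, 0.0179 and 0.00217. CRB3 has the shortest transcript of the list, at 630 bases, and with length offsets its changes were -0.12, 0.36 and -0.30: those with hairpins 1 and 3 were not called and that with hairpin 2 was called higher. Its hairpin 2 call was also lost without control library 2 or 3 (-0.30 and -0.28) or hairpin 2 library 1 or 3 (-0.23 and -0.31). CGN, or cingulin, was higher with hairpin 1 (0.73 (SE 0.11)) and hairpin 3 (0.70 (SE 0.11)). TJP1, or ZO-1, was called higher with hairpin 1 (0.62 (SE 0.15)) and hairpin 2 (0.51 (SE 0.15)). With length offsets these became 0.10, not called, and -0.16, called lower.

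Of the 5 surface and regulatory genes, 1 was higher and 1 lower with hairpin 1, 2 higher and 2 lower with hairpin 2, and 1 lower with hairpin 3. Length offsets gave 2 higher and 1 lower with hairpin 1, 2 higher and 2 lower with hairpin 2, and 1 higher and 1 lower with hairpin 3. ESRP1, a splicing factor that sets epithelial isoforms, was lower with each hairpin. By library it read 55.2, 55.4 and 55.7 CPM in the hairpin 1 line, 39.3, 41.5 and 45.6 CPM in the hairpin 2 line and 67.3, 53.1 and 49.5 CPM in the hairpin 3 line, against 86.4, 74.2 and 65.5 CPM in the control line. The hairpin 1 and hairpin 2 libraries lay below the control range, and the highest hairpin 3 library reached into it. This gave log2 fold changes of -0.44 (SE 0.12), -0.84 (SE 0.12) and -0.41 (SE 0.12), with edgeR adjusted p of 0.00834, 7.86e-05 and 0.0167, and -0.54, -0.94 and -0.47 with length offsets. The hairpin 3 call was lost without hairpin 3 library 2 or 3 (-0.37 and -0.32). In the TPM fit none of the 3 was called by limma, with adjusted p of 0.777, 0.103 and 0.315.

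EPCAM, an adhesion protein used as a general epithelial marker, measured 237, 229 and 229.6 CPM in the hairpin 1 line, 194, 175 and 182 CPM in the hairpin 2 line and 261, 279 and 297 CPM in the hairpin 3 line, against 238, 266 and 275 CPM in the control line. The hairpin 2 libraries were the lowest, the hairpin 1 libraries lay just below the control range, and the hairpin 3 libraries overlapped it. Against the control line, its log2 fold changes were -0.16 (SE 0.07), -0.50 (SE 0.07) and 0.10 (SE 0.07), called with hairpin 2 alone (edgeR adjusted p = 7.19e-05). With length offsets they were 0.21, 0.02 and 0.30, called higher with hairpins 1 and 3 and not called with hairpin 2. GRHL1 and GRHL2 encode grainyhead-like transcription factors of epithelia. GRHL1 was higher with hairpin 1 (0.44 (SE 0.13)) and hairpin 2 (0.82 (SE 0.13)). GRHL2, at the bottom of the level order, was higher with hairpin 2 (1.40 (SE 0.21)), at 2.95, 2.31 and 3.03 CPM, against 1.14, 1.03 and 0.957 CPM in the control line. ESRP2, the paralogue of ESRP1, was not called, at log2 fold changes of 0.06, -0.07 and -0.03, but in the TPM fit limma called it higher with hairpins 1 and 2 (0.68 and 0.68). With length offsets ESRP2 was instead called lower with hairpin 2 (-0.36).

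**Figure D3:**
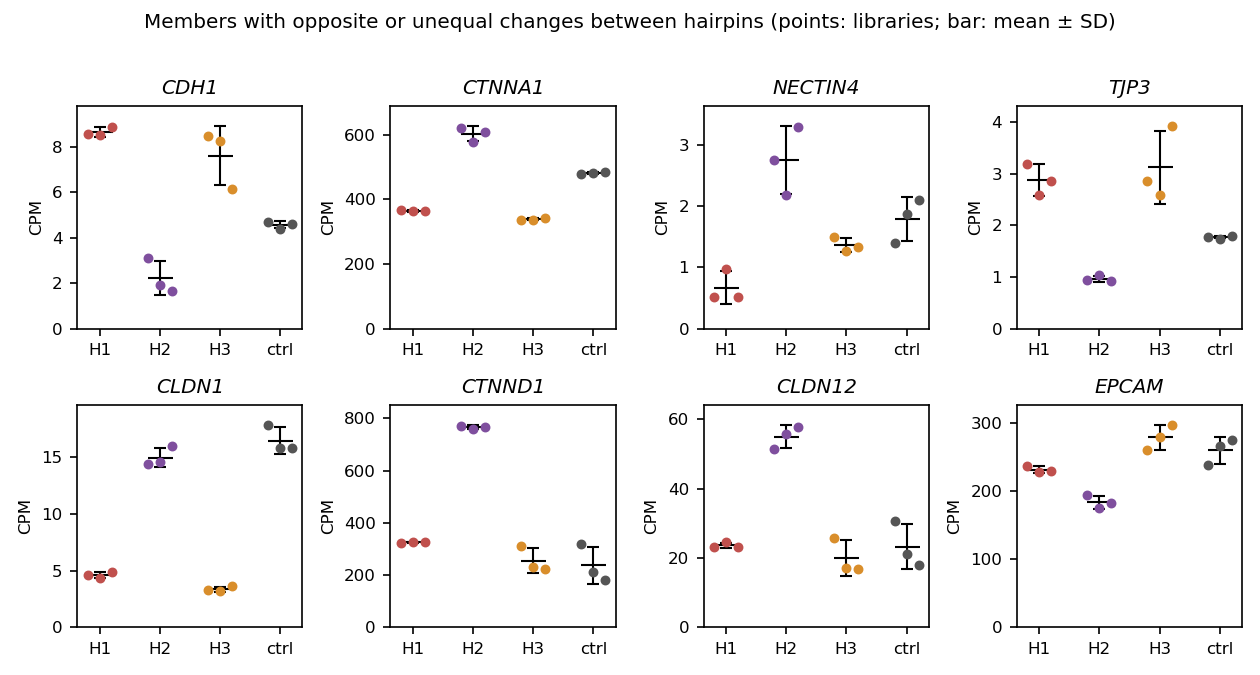
CPM (vertical axis, from 0) of CDH1, CTNNA1, NECTIN4 and TJP3, called in opposite directions with different hairpins, and of CLDN1, CTNND1, CLDN12 and EPCAM, by line (H1, H2, H3 and control). Points are the 3 libraries and the black bar is their mean ± SD; CLDN1 stands at 4.64, 4.35 and 4.88 CPM in the hairpin 1 line and 3.25, 3.16 and 3.604 CPM in the hairpin 3 line, against 17.8, 15.8 and 15.8 CPM in the control line.

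The hairpin lines were also compared with each other. Between hairpin 2 and hairpin 1, 15 genes were higher and 12 lower, where 57.6% of all genes were called, 28.2% higher and 29.4% lower. Between hairpin 3 and hairpin 2, 13 were higher and 17 lower, where 65.3% of all genes were called, 33.4% higher and 31.9% lower. In the TPM fit that comparison gave 9 higher and 21 lower, where limma called 19.2% of all genes higher and 44.1% lower. Between hairpin 3 and hairpin 1, 3 were called, where 9.45% of all genes were, 4.75% higher and 4.7% lower. Those were EPCAM, higher at 0.27 (SE 0.07, edgeR adjusted p = 0.0435), and CLDN1 and NECTIN1, lower at -0.47 (SE 0.11, edgeR adjusted p = 0.0331) and -0.51 (SE 0.07, edgeR adjusted p = 0.002). This count depended on single libraries. Without the first hairpin 3 library 13 genes were called, without the first control library 7, and without both 21. The shares of all genes called in these fits are not given, so the shift cannot be read as particular to the members. Hairpin 2 minus hairpin 1 was largest on the upper side for NECTIN4, at 2.03 (SE 0.27, edgeR adjusted p = 6.57e-05), with 8 to 15 reads in each hairpin 1 library. On the lower side it was largest for CDH1, at -1.96 (SE 0.20, edgeR adjusted p = 6.08e-06). KRT8, at -1.60 (SE 0.12, edgeR adjusted p = 6.20e-07), and TJP3, at -1.57 (SE 0.20, edgeR adjusted p = 4.37e-05), were also lower in the hairpin 2 line. CXADR was 1.55 (SE 0.16, edgeR adjusted p = 7.73e-06) higher with hairpin 2 than with hairpin 1. Its hairpin 3 minus hairpin 1 difference was -0.03 (SE 0.16, edgeR adjusted p = 0.901), not called.

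**Figure D4:**
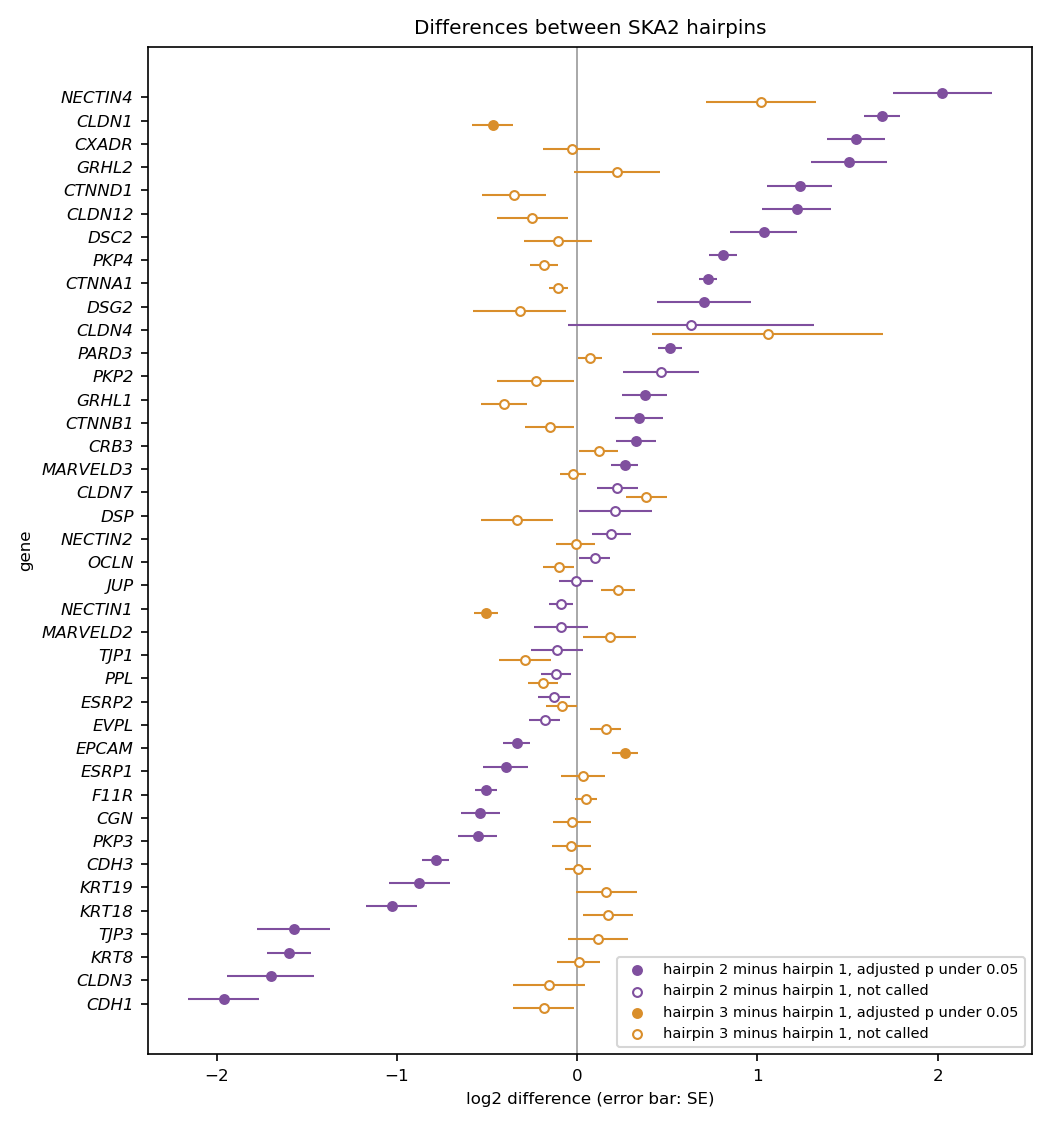
Log2 difference (horizontal axis, error bars are SE) of each of the 40 genes between the hairpin 2 and hairpin 1 lines (purple) and between the hairpin 3 and hairpin 1 lines (orange), ordered by the first. Filled points have an adjusted p under 0.05: 27 purple points are filled, and the 3 filled orange points are EPCAM, CLDN1 and NECTIN1.

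The length of a transcript went with the sign of the change in these genes as in all genes. Of the 7 members with effective lengths under 1600 bases, which include the 3 keratins, CLDN7 and CRB3, none was higher with any hairpin, and 4, 7 and 4 were lower with hairpins 1, 2 and 3. Of all 2720 genes of that length, 159, 294 and 268 were higher and 1640, 1805 and 872 lower. The median log2 fold change of the 7 members was -0.469, -0.998 and -0.461, against -0.45, -0.601 and -0.192 for all genes of that length. For the 12 members over 4500 bases the median was 0.541, 0.353 and 0.201, against 0.494, 0.606 and 0.251 for all genes of that length. With length offsets, 11 members were higher and 15 lower with hairpin 1, 16 higher and 17 lower with hairpin 2, and 11 higher and 12 lower with hairpin 3. Over all genes the offset fit called 30.8% higher and 29.3% lower with hairpin 1, 37.6% and 36.1% with hairpin 2, and 27.7% and 27.6% with hairpin 3. Members called in the same direction by both fits numbered 18, 27 and 18 with hairpins 1, 2 and 3. Calls lost in the offset fit were those of CTNND1, NECTIN2, DSP, TJP1, PARD3 and CRB3 with hairpin 1, DSP and EPCAM with hairpin 2, and CRB3 with hairpin 3, and TJP1 and CRB3 turned to the opposite call with hairpin 2. Calls gained there with hairpin 1 were those of CDH3, NECTIN1, PKP4, PPL, OCLN, F11R, EPCAM and KRT19. NECTIN2, PPL, OCLN and ESRP2 gained a call with hairpin 2, and PKP4, OCLN, MARVELD3, EPCAM and KRT19 with hairpin 3.

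**Figure D5:**
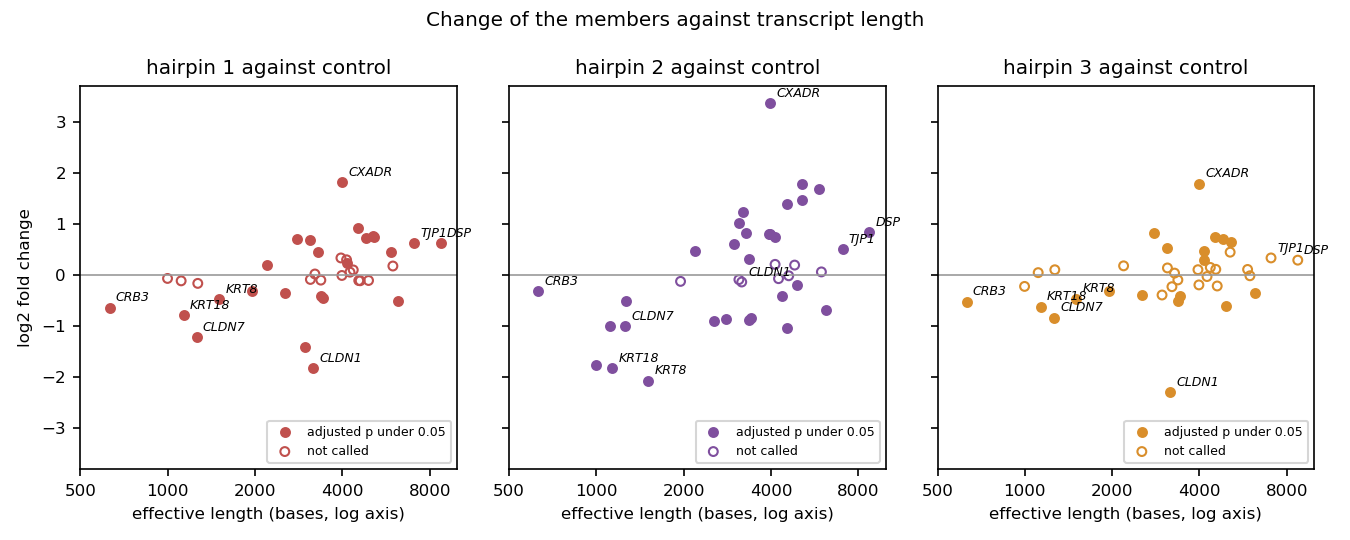
Log2 fold change (vertical axis) of the members against effective transcript length in bases (horizontal log axis), 1 panel for each hairpin against the control line. Filled points have an adjusted p under 0.05. The 7 shortest genes, under 1600 bases, hold no filled point above 0 in any panel. Of all 2720 genes of that length, 159, 294 and 268 were called higher with hairpins 1, 2 and 3. CXADR at 3983 bases stands above the other genes of similar length.

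Other genes of the same pathways, which were not among the 40, were called in both directions. Of 95 such genes 66 were tested, and 17 were higher and 26 lower with hairpin 1, where 31.5% of all genes were higher and 31.5% lower. With hairpin 2, 24 were higher and 27 lower (36.6% and 37.8% of all genes), and with hairpin 3, 9 higher and 19 lower (23.6% and 24.0%). Length offsets gave 13 higher and 21 lower, 19 higher and 26 lower and 11 higher and 22 lower with hairpins 1, 2 and 3. Of all genes the offset fit called 30.8%, 37.6% and 27.7% higher and 29.3%, 36.1% and 27.6% lower. The TPM fit gave 26 higher and 13 lower, 30 higher and 14 lower and 11 higher and 13 lower. Of all genes the TPM fit called 50.2%, 53.0% and 25.0% higher and 13.5%, 20.9% and 16.1% lower. The median log2 fold change of the 66 genes without offsets was -0.000664, -0.0686 and -0.188. Of 9 other keratins tested, 2 were higher and 5 lower with hairpin 1, 2 higher and 6 lower with hairpin 2, and 2 higher and 5 lower with hairpin 3. These were 2 higher and 3 lower, 1 higher and 5 lower, and 2 higher and 5 lower with hairpins 1, 2 and 3 when length offsets were used. KRT20, a keratin of gastric and intestinal surface cells, was higher with hairpins 1 and 3 and lower with hairpin 2, at log2 fold changes of 2.12, -0.51 and 1.59, and with length offsets the hairpin 2 change was -0.07 and not called. KRT7 fell by 0.91, 1.59 and 0.72 on the log2 scale with hairpins 1, 2 and 3, and KRT23 by 1.49, 1.44 and 1.01.

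Among 15 other tight junction genes tested, 3 were higher and 5 lower with hairpin 1, 4 and 4 with hairpin 2, and 1 and 2 with hairpin 3. With length offsets the counts with hairpins 1, 2 and 3 were 3 higher and 5 lower, 4 higher and 4 lower, and 1 higher and 4 lower. Beside this list and those below, 31.5%, 36.6% and 23.6% of all genes were higher and 31.5%, 37.8% and 24.0% lower. The offset fit called 30.8%, 37.6% and 27.7% of all genes higher and 29.3%, 36.1% and 27.6% lower. MAGI3, a scaffold of the junction plaque, was higher with each hairpin (1.53, 2.18 and 1.12), and LSR, which recruits tricellulin, was lower with each (-0.61, -0.82 and -0.56). Of 10 other adherens junction genes, 6 were higher and 1 lower with hairpin 1, 7 and 3 with hairpin 2, and 1 and 2 with hairpin 3. Length offsets gave 3 higher and 2 lower with hairpin 1, 5 higher and 3 lower with hairpin 2, and 2 higher and 3 lower with hairpin 3. VCL, or vinculin, which links catenins to actin, was higher with hairpin 2 (0.98), while ARVCF, a catenin of the p120 family, was lower with each hairpin (-0.77, -0.69 and -0.74) and CTNNAL1 was higher with hairpin 1 and lower with hairpin 2 (0.23 and -0.45). Of 13 other polarity genes, 4 were higher and 4 lower with hairpin 1, 7 and 4 with hairpin 2, and 1 and 3 with hairpin 3. These were 2 higher and 5 lower, 5 higher and 5 lower, and 1 higher and 3 lower with hairpins 1, 2 and 3 when length offsets were used. CRB1, a crumbs protein, was higher with hairpin 2 (3.22) at low levels of 2.25 ± 0.287 CPM, against 0.234 ± 0.0716 CPM in the control line (SD, n = 3 each). LLGL2 was lower with each hairpin (-0.39, -0.86 and -0.40) and LLGL1 with hairpin 2 (-0.96). The single further desmosome gene tested, PERP, was higher with hairpins 2 and 3 (0.30 and 0.23). Of 18 other surface and regulatory genes, 2 were higher and 11 lower with hairpin 1, 3 and 10 with hairpin 2, and 3 and 7 with hairpin 3. With length offsets the counts with hairpins 1, 2 and 3 were 2 higher and 6 lower, 3 higher and 9 lower, and 4 higher and 7 lower. Of all genes 31.5%, 37.8% and 24.0% were lower, or 29.3%, 36.1% and 27.6% with offsets. The median log2 fold change of these 18 genes was -0.515 with hairpin 1, or -0.153 with offsets. The transcription factor ELF3 was higher with each (0.58, 1.18 and 1.18), and KLF4 was lower with hairpin 1 (-1.63) and hairpin 3 (-0.95).

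Genes of the mesenchymal state, which are often set against the junction genes, were measured as well. Of 7 tested, 2 were higher, 2 lower and 3 not called with hairpin 1, where 63.1% of all genes were called. With hairpin 2, 1 was higher, 2 lower and 4 not called (74.4% of all genes called), and with hairpin 3, 2 were lower and 5 not called (47.6%). Length offsets gave 0 higher and 2 lower with hairpin 1, 1 higher and 4 lower with hairpin 2, and 0 higher and 2 lower with hairpin 3. VIM, the filament protein of mesenchymal cells, had log2 fold changes of -1.59, -2.55 and -0.85 and was called lower with each hairpin. ACTA2, smooth muscle actin, was also lower with each (-0.60, -1.88 and -0.55). ZEB1, a repressor of epithelial genes, was higher with hairpin 1 (0.44) and hairpin 2 (0.97), and with length offsets its call held with hairpin 2 alone.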

How the data were processed

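RNA-seq libraries of 4 SNU638 lines were grouped by their titles, with 3 libraries for each of SKA2 hairpin 1, hairpin 2, hairpin 3 and the control hairpin. Per the labels' protocols, polyadenylated RNA was fragmented and primed with random hexamers, with no step named that marks the strand. HISAT, Bowtie2, RSEM and DESeq2 and the build GRCh38.p13 are named in the submitters' processing notes, without roles, order or versions. The authors deposited expected counts per gene and library, per the file headers, with values that need not be whole because ambiguous reads are shared. Per the file headers the deposited FPKM values are relative to transcript length and library size, and the deposited TPM values also to a common total per library. The table also holds 15 columns of averages over groups, which were left out.

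Expected counts were rounded and tested with edgeR 4.0.16 (R 4.3.3): genes kept by its expression filter, TMM scaling, a quasi-likelihood fit of all 12 libraries (8 residual degrees of freedom, common biological coefficient of variation 0.111), two-sided tests and Benjamini-Hochberg adjustment over the 12868 genes tested. SE is the absolute log2 fold change over the square root of the F statistic. CPM were scaled by TMM. Effective length was derived from the deposited counts and FPKM, and in the length fit each library had offsets from a loess curve of its log2 level on log2 length (span 0.3). Alternatives were DESeq2 1.42.0, no filter, limma 3.58.1 on log2(TPM + 1), the 2 compared groups alone, a replicate block, length offsets with and without that block, and each library left out. A blocked fit of 6 libraries and a fit without the first libraries of hairpin 3 and the control were added after seeing the data. The edgeR step was tested on simulated data. No libraries were duplicates: the chi-square per degree of freedom between libraries of a line was at least 1.69.

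Replicate numbers were taken as pairing hairpin 3 with the control, because libraries of the same number deviated together there (correlations across genes of 0.17 to 0.728). Across numbers, control library 2 with hairpin 3 library 3 gave 0.23, and control library 3 with hairpin 3 library 2 gave 0.391. The first library of either line gave -0.667 to -0.267 with the later libraries of the other. These values set the first libraries apart but do not tell which of the later libraries belong together. In the other pairs of groups, libraries of the same number gave -0.247 to 0.0614. This pairing comes from the data and not from the labels. Values by library are given for members called in 1 direction with all 3 hairpins or in opposite directions, the 5 largest changes per hairpin, and KRT8, KRT18, KRT19, CDH1 and EPCAM, and other lists are named by up to 3 smallest adjusted p. Members and lists were chosen with earlier results of these data known.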

Additional observations from a re-analysis of the deposited data

How the results depend on the processing

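The number of members called stayed within 1.5 times in every alternative for hairpin 1 against control, hairpin 2 against control, hairpin 2 against hairpin 1 and hairpin 3 against hairpin 2. Leaving out 1 library at a time gave 17 to 27, 29 to 31, 23 to 29 and 28 to 34 called members. The share of all genes called with a library left out is not given, here or for the other comparisons. For hairpin 3 against control, 19 were called, 16 to 26 with 1 library left out, 11 in the fit of these 2 groups alone and 30 in that fit with the replicate block. The block in the fit of all libraries added TJP1 to that comparison, and the pairing is described with the methods. For hairpin 3 against hairpin 1, 3 were called, 5 by DESeq2, 7 by limma on log2(TPM + 1), 1 in the fit of these 2 groups alone, 5 with length offsets, 5 with length offsets and the replicate block, 1 to 13 with 1 library left out and 21 without the first control library and the first hairpin 3 library. Calls kept under every alternative numbered 11 of 24 with hairpin 1, 21 of 31 with hairpin 2 and 10 of 19 with hairpin 3. CXADR, CLDN7 and KRT18 were among them for all 3 hairpins.

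Of 240 single-gene results, 70 changed sign under at least 1 alternative. In 22 of them the gene was called before or after the change, and their 38 values follow. The other 48 were not called on either side. In the limma fit of log2(TPM + 1), the sign turned for hairpin 1 against control NECTIN2 at 0.0479, JUP at 0.281, PKP3 at 0.0312, EPCAM at 0.215 and KRT19 at 0.288, for hairpin 2 against control NECTIN1 at 0.115, NECTIN2 at 0.368, JUP at 0.358, OCLN at 0.636, F11R at 0.034 and ESRP2 at 0.679, for hairpin 3 against hairpin 1 KRT8 at -0.222, for hairpin 3 against hairpin 2 ESRP2 at -0.497. With length offsets, the sign turned for hairpin 1 against control PPL at -0.256, F11R at -0.146, EPCAM at 0.211 and KRT19 at 0.311, for hairpin 2 against control NECTIN2 at 0.179, PPL at -0.494, TJP1 at -0.157, CRB3 at 0.356 and EPCAM at 0.024, for hairpin 3 against hairpin 2 PPL at 0.279, CLDN7 at -0.181 and TJP1 at 0.229. With length offsets and the replicate block, the sign turned for hairpin 1 against control PPL at -0.254, F11R at -0.145, EPCAM at 0.212 and KRT19 at 0.317, for hairpin 2 against control NECTIN2 at 0.181, PPL at -0.493, TJP1 at -0.156, CRB3 at 0.356 and EPCAM at 0.0241, for hairpin 3 against hairpin 1 KRT8 at -0.15, for hairpin 3 against hairpin 2 PPL at 0.277, CLDN7 at -0.181 and TJP1 at 0.229. The cause was not tested. Members with few reads, such as CLDN3, CLDN4, NECTIN4, GRHL2 and TJP3, limit the precision at this depth.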
